A study of Mus musculus with 20 samples.

Results

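Adrenergic receptor transcripts were followed in the inguinal white fat (iWAT) of mice that lacked Tmem120a in adipocytes and were kept on a low-fat or a high-fat diet. The genes were chosen by name: Adrb1, Adrb3, Adra1a, Adra1b and Adra2a, which are 5 of the 36611 genes of the table. The 20 libraries came from 20 female C57BL/6 mice aged 6 months (the floxed line was on C57BL/6 N Tac and the Cre line on C57BL/6 J), with 1 mouse per library and 5 mice in each of 4 groups, and summed to between 54605101 and 92387737 estimated counts. Controls were Tmem120a fl/fl littermates without Cre, and knockouts (Ad-Tmem120a-/-) were Tmem120a fl/fl mice carrying Adiponectin-Cre, which is active in mature adipocytes and leaves the floxed gene intact in the other cells of the tissue. Both genotypes received for 15 weeks a low-fat diet (LFD) with 10.5% fat or a high-fat diet (HFD) with 58% fat, and all mice were fasted before tissue was taken.

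Noradrenaline released by sympathetic nerves acts on fat cells through these receptors. The beta receptors, of which Adrb3 encodes the form typical of rodent adipocytes, couple to Gs and raise cAMP, which activates protein kinase A and lipolysis, and in brown and beige fat thermogenesis. Alpha-2 receptors such as the product of Adra2a couple to Gi and lower cAMP, whereas alpha-1 receptors (Adra1a, Adra1b) couple to Gq, phospholipase C and protein kinase C.

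The deleted gene and the makeup of the tissue were examined first. Tmem120a lay between 57.9 and 132 TPM (a level scaled to transcript length and to the library's total) in control LFD, between 21.5 and 74.0 TPM in knockout LFD, between 83.3 and 196 TPM in control HFD and between 29.5 and 89.7 TPM in knockout HFD. It was lower in the knockouts over both diets, with a log2 fold change of -1.64 and an adjusted p of 0.00732 in edgeR's quasi-likelihood test, although the ranges of the genotypes overlapped on each diet. The call was lost with length offsets in edgeR (adjusted p = 0.205) and with limma on log2(TPM + 1) and log2(TPM + 0.1) (0.166 and 0.187). Over both diets 5 of 8 alternative settings kept the call. On single diets the edgeR fit reported here did not call it, with adjusted p of 0.929 on LFD and 0.173 on HFD. Of 9 alternative settings, 1 called it on LFD and 4 called it on HFD. These values count the whole gene, of which the floxed part is a few exons. The summed TPM of 10 white adipocyte markers was high in every library, from 14699 to 32519 TPM. Skeletal muscle markers were uneven: their 12-gene sum ran from 8.55 to 3833 TPM in control LFD, from 13.9 to 1158 TPM in knockout LFD, from 8.34 to 59.7 TPM in control HFD and from 46.2 to 1671 TPM in knockout HFD. In whole tissue, fewer cells of a type and less RNA per cell cannot be told apart.

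The receptor genes differed widely in level. Over the 20 libraries, Adrb3 had a mean of 25.2 TPM and was above Adra1a, with 5.39 TPM, in 20 of 20 libraries. Adrb1, whose product is the beta-1 receptor shared with the heart, had a mean of 1.19 TPM, and the lowest Adra1a level of 2.65 TPM was still above the highest Adrb1 level of 1.77 TPM. Adra2a and Adra1b were near the limit of detection, with means of 0.225 and 0.138 TPM. The order of this last pair was not fixed, since Adra2a was the higher in 15 of 20 libraries. Among the adrenergic receptor genes outside the chosen set, Adra1d (alpha-1D) had a mean of 0.630 TPM. Adra2c and Adra2b, both alpha-2 receptors, had 0.0528 and 0.0444 TPM and could not be ordered.

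Adrb3 accounted for most of the summed signal of these 8 receptor genes in each group. As a share of that sum in TPM, its median was 77.7% in control LFD, 79.9% in knockout LFD, 68.3% in control HFD and 74.2% in knockout HFD. The lowest single value, 57.5%, was in control HFD and the highest, 86.5%, in knockout LFD. The plot of receptor levels by group shows every mouse.

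**Figure D1:**
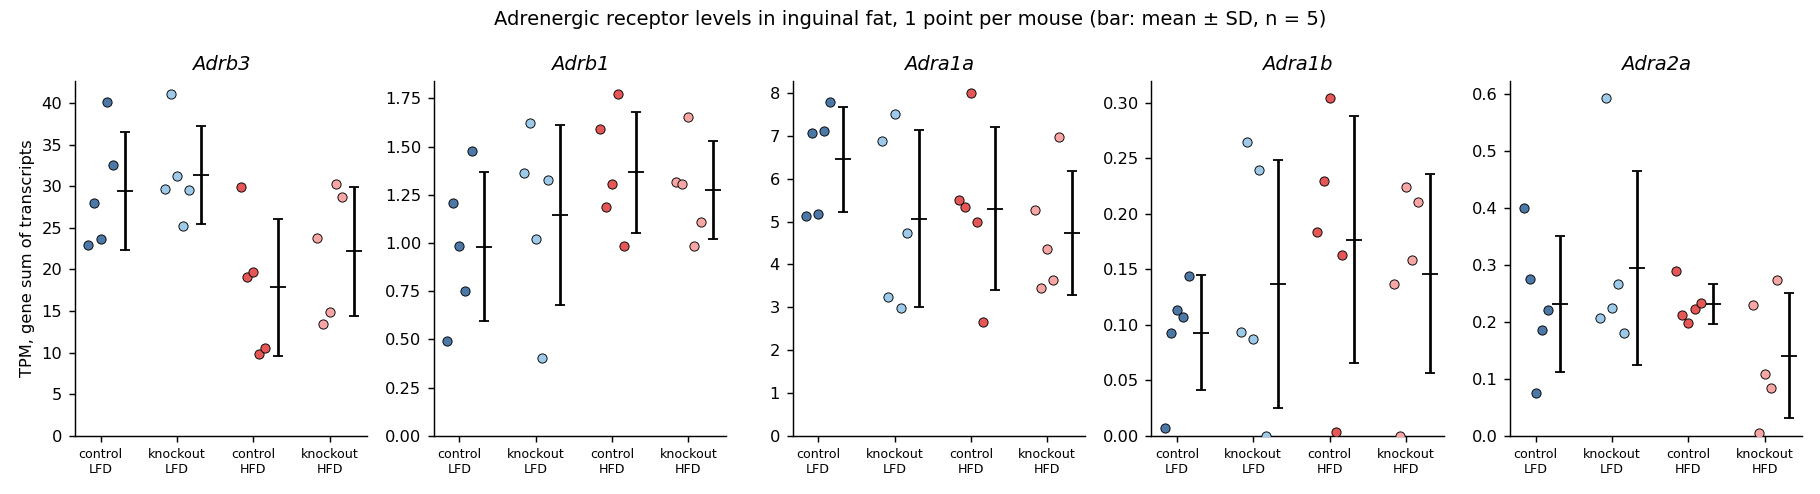
TPM of the 5 receptor genes (vertical axes, a separate linear scale per gene) in each of 4 groups, with 1 point per mouse and a bar at the mean ± SD (n = 5). Adrb3 means were 29.5 and 31.4 TPM on LFD in controls and knockouts and 17.8 and 22.2 TPM on HFD, and the points of all groups overlap for every receptor.

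Only genes that averaged 0.5 TPM or more in the libraries compared entered the test across all genes, and a gene was called when its adjusted p was under 0.1. Of the 5 receptor genes, 3 (Adrb1, Adrb3 and Adra1a) passed that filter. The first question was whether loss of Tmem120a altered them. No receptor was called between genotypes: 0 of 3 on LFD, where 0.00636% of 15717 genes tested were called, 0 of 3 on HFD, where 0.00657% were called, and 0 of 3 over both diets, where 0.0385% were called. None of the 3 had an unadjusted p under 0.05 in these comparisons, and DESeq2 called 0 of 3 in each of them too, beside 0.108%, 0.657% and 0.398% of all genes.

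The second question was whether the high-fat diet altered the receptors. In control mice 1 of 3 was called, Adrb3, and it was lower on HFD, beside 9.32% of 15311 genes called in either direction and 4.90% called lower. In knockout mice 0 of 3 were called by edgeR, beside 9.40% of all genes, with 1 at an unadjusted p under 0.05. DESeq2 called 1 of 3 there, beside 14.3% of all genes. Over both genotypes Adrb3 was again the 1 called of 3, beside 25.2% of genes called in either direction and 12.8% called lower. The third question was whether the genotype effect differed between diets: 0 of 3 receptors and 0% of 15574 genes were called in edgeR's test of that difference, where 560 genes had an unadjusted p under 0.05 and DESeq2 called 17. Comparisons that share a group of mice are not independent of each other.

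**Figure D2:**
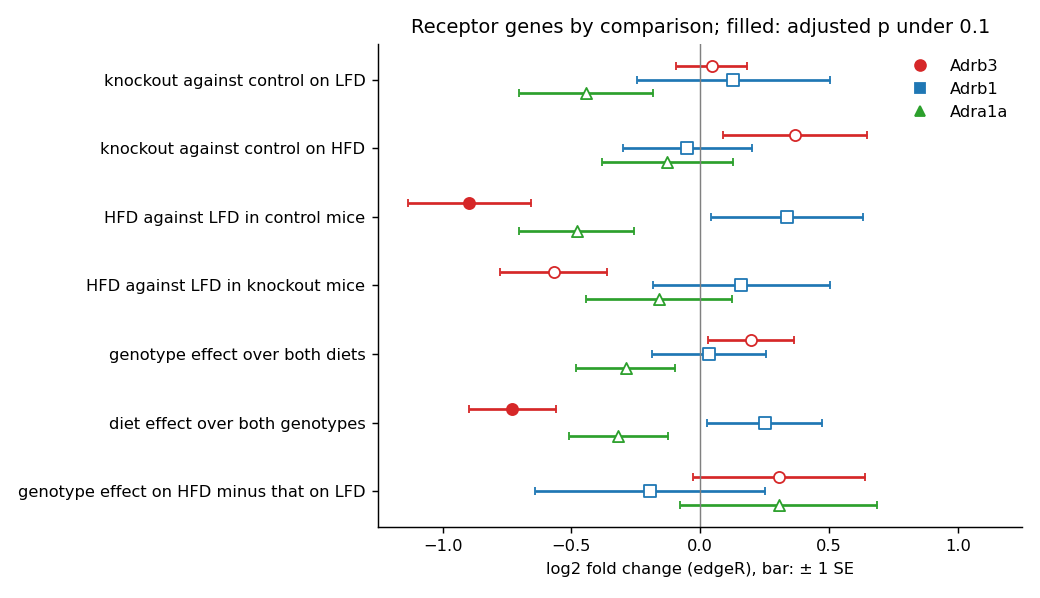
Log2 fold change ± 1 SE (edgeR) of Adrb3, Adrb1 and Adra1a in 7 comparisons, with filled symbols where the adjusted p was under 0.1. Adrb3 was called in control mice (-0.90) and over both genotypes (-0.73) on HFD against LFD, and every other symbol is open.

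Adrb3 (ENSMUSG00000031489) lies on the minus strand at chr8:28336248-28340060 in the mm9 build, with no other annotated gene within 2000 bases. It is annotated with 4 transcripts that encode 2 forms of the receptor, which share their first coding exon of 1163 bases and differ in the last. The 2 coding ends are shown because they are what separates the forms, read from the GENCODE transcripts on the same build, 5′ to 3′. Lower case is the last 45 bases of the shared exon, and capitals are the bases of the alternative last coding exon with its stop codon.
Adrb3 form a: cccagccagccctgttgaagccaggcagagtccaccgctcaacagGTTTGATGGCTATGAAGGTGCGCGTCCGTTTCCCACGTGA
Adrb3 form b: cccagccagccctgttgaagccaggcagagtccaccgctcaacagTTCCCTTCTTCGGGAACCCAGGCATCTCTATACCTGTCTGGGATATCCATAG

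Form a ends in chr8:28337229-28337265 and has 400 residues. Form b ends in chr8:28337320-28337368 and has 404 residues. Form a carried nearly all of the estimated Adrb3 signal: its median share of the gene's TPM was 98.5% in control LFD, 98.9% in knockout LFD, 100% in control HFD and 100% in knockout HFD. The lowest share in any mouse was 85.1%, in control LFD replicate 4. Form b was above 0 in 4 of 5 control LFD, 3 of 5 knockout LFD, 2 of 5 control HFD and 1 of 5 knockout HFD libraries, with a highest level of 5.98 TPM. These shares are estimates, because a read from the shared exon is assigned between transcripts by a model.

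Adrb3 fell on the high-fat diet. In control LFD its 5 levels were 23.0, 28.0, 23.6, 40.1 and 32.6 TPM. In control HFD they were 30.0, 19.1, 19.7, 9.85 and 10.5 TPM. Of the 5 HFD controls, 4 were below every LFD control, and the remaining mouse, replicate 11, lay among them. The log2 fold change was -0.90 ± 0.24 (SE), with an adjusted p of 0.0544 in edgeR, from means of 29.5 ± 7.10 and 17.8 ± 8.21 TPM (SD, n = 5 each). On the log2(TPM + 1) scale the difference was -0.77, with a two-sided exact permutation p of 0.0476, which was 0.508 after adjustment over 20 such tests. The smallest p that 5 mice against 5 can give is 0.00794.

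In knockout LFD the Adrb3 levels were 29.7, 41.1, 31.2, 25.3 and 29.6 TPM, and in knockout HFD 23.8, 13.4, 14.9, 30.2 and 28.7 TPM. Among these HFD mice, 3 were below every LFD knockout and 2 lay within their range. The log2 fold change was -0.57 ± 0.21 (SE), with an adjusted p of 0.140. Over both genotypes it was -0.73 ± 0.17, with an adjusted p of 0.00426, and its range was from -0.83 to -0.66 when each of the 20 mice was left out in turn, called each time. The diet effect was not shown to differ between genotypes, since the test of that difference gave 0.30 ± 0.33 with an adjusted p of 0.9999.

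Within single genotypes the call for Adrb3 varied with the setting. In control mice its adjusted p was 0.00510 with DESeq2, 0.0135 with DESeq2 and length offsets and 0.00319 with library sizes from white adipocyte markers. It was lost with limma on log2(TPM + 1), at an adjusted p of 0.118, and when control LFD replicate 5 (0.109), control HFD replicate 13 (0.106) or control HFD replicate 15 (0.107) was left out. In knockout mice it was gained with DESeq2, at an adjusted p of 0.0554, with DESeq2 and length offsets (0.0657), with library sizes from white adipocyte markers (0.0197), and when knockout HFD replicate 20 was left out (0.0578). The white adipocyte scaling moved the median of all genes by -0.45 in controls and -0.54 in knockouts. It called 40.8% and 30.5% of them.

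**Figure D3:**
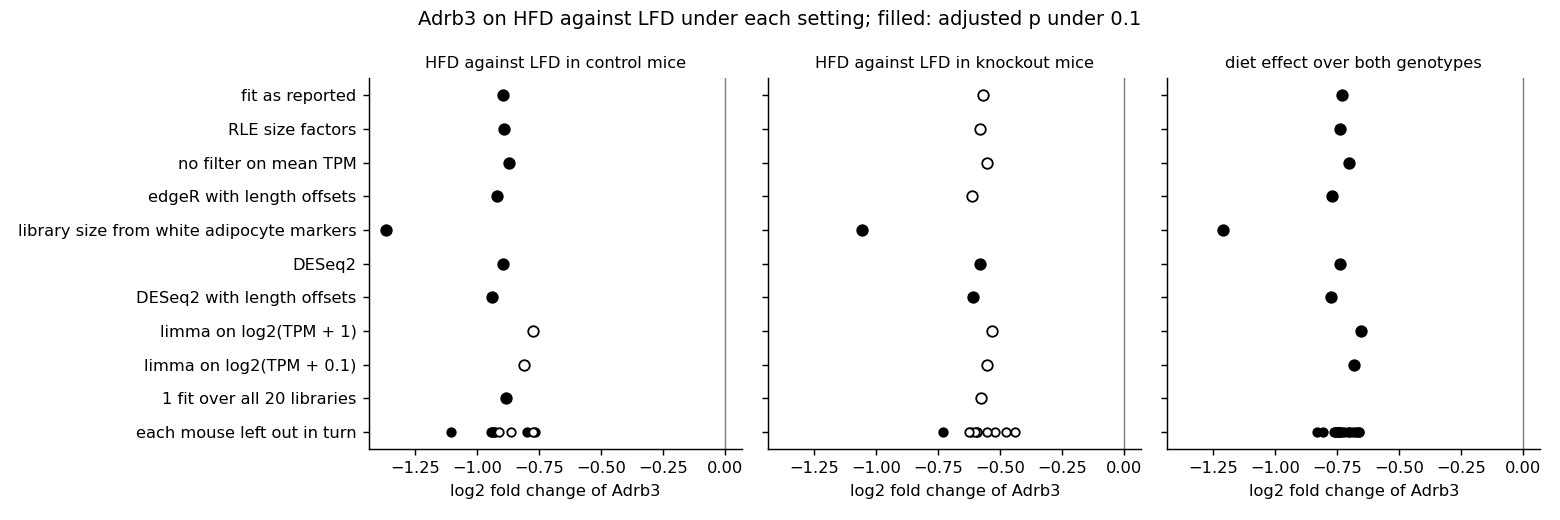
Log2 fold change of Adrb3 on HFD against LFD (horizontal axis) under each setting (rows), in control mice, knockout mice and over both genotypes, with filled points where the adjusted p was under 0.1. The lowest row has 1 point per mouse left out, and every point in the 3 panels is below 0.

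Marker genes of other cell types moved with the same contrast. In control mice 10 of 12 muscle fibre markers were called lower on HFD, beside 4.90% of all genes called lower. All 12 had a log2 fold change below 0, with a median of -5.75 beside -0.04 for all genes. Control LFD replicate 5 had the largest muscle sum of 3833 TPM. In knockout mice 0 of 12 muscle markers were called, beside 9.40% of all genes, and the median of the 12 was 0.60. Of the brown and beige markers tested, 2 of 6 were called lower in control mice and 0 of 6 in knockout mice. Those called were Cidea (a lipid droplet protein, -2.58) and Elovl3 (a fatty acid elongase, -3.72). All 6 were below 0 in control mice, from -3.72 to -0.27 with a median of -2.08. In knockout mice these markers ran from -0.26 to 0.89. Their summed TPM ran from 82.2 to 678 in control LFD, 54.6 to 404 in knockout LFD, 50.1 to 207 in control HFD and 63.7 to 566 in knockout HFD. Of 10 white adipocyte markers, 5 were called higher on HFD over both genotypes, beside 25.2% of all genes called in either direction. Among the 5 was Lep, the satiety hormone of fat, at 2.26. The part of these cell types in the Adrb3 result was not tested. When library sizes were set to the summed counts of the white adipocyte markers, which moved the median of all genes by -0.49 over both genotypes and called 62.7% of them, Adrb3 was at -1.21 with an adjusted p of 4.71e-05.

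**Figure D4:**
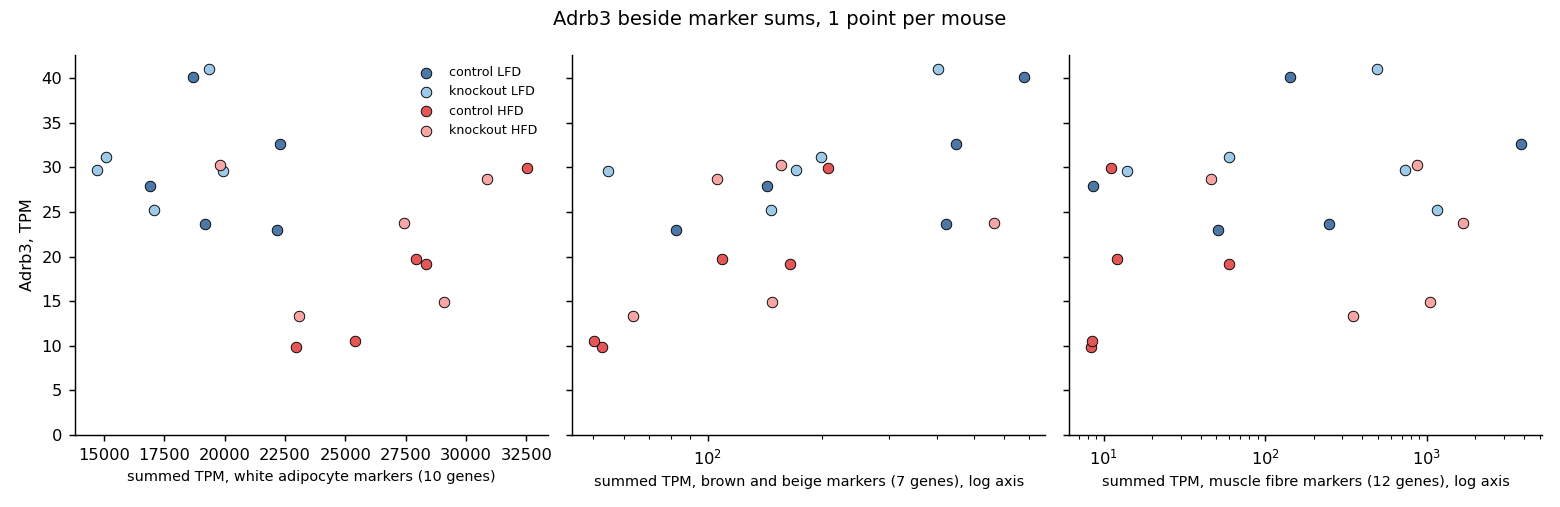
Adrb3 level in TPM (vertical axis) against the summed TPM of 10 white adipocyte, 7 brown and beige (log axis) and 12 muscle fibre markers (log axis), with 1 point per mouse coloured by group. Pearson's r over the 20 libraries, on log2(TPM + 1), was -0.39, 0.65 and 0.29 for the 3 lists. For the white adipocyte markers it was -0.04 within LFD and 0.30 within HFD.

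As a description over the 20 libraries, Adrb3 followed the brown and beige sum with r = 0.65, and with r = 0.56 and 0.68 within the 10 LFD and the 10 HFD libraries. Both values of a pair come from the same library and the libraries fall into groups, so no p is given. For white adipocyte markers r was -0.39 over the 20 libraries, but -0.04 on LFD and 0.30 on HFD, so the negative sign was not kept within diets. The corresponding r for muscle fibre markers was 0.29, with 0.18 on LFD and 0.27 on HFD. Markers of smooth muscle, endothelium and macrophages went the other way, with r of -0.62, -0.59 and -0.50 over the 20 libraries. These were weaker within diets: r was -0.24, -0.34 and -0.43 on LFD and -0.45, -0.26 and -0.26 on HFD. In control mice the summed smooth muscle markers had means of 336 TPM on LFD and 548 TPM on HFD, the endothelial markers 175 and 261 TPM, and the macrophage markers 200.3 and 237 TPM. Such sums weigh abundant genes most. Gene by gene in controls, the 8 smooth muscle markers ran from -0.96 to 0.81 (median -0.13) and none was called. The 6 macrophage markers had a median of -0.0085 with 1 called higher. The 7 endothelial markers had a median of 0.23 with 2 called higher, beside 9.32% of all genes called in either direction. Of 7 endothelial markers 3 were called higher and 1 lower on HFD over both genotypes, beside 25.2% of all genes called in either direction. Of 8 smooth muscle markers 1 was called higher and 1 lower, and of 6 macrophage markers 1 was called higher. The 3 single genes most like Adrb3 among the 9298 genes that averaged 5 TPM or more were Elavl1, which encodes an RNA-binding protein (r = 0.87), Acsf2, an acyl-CoA synthetase family member (0.87), and Thrsp, a lipogenic nuclear protein (0.87). Within diets Acsf2 kept r = 0.87 on LFD and 0.86 on HFD, whereas Elavl1 had 0.49 and 0.95. Thrsp means were 284 and 302 TPM on LFD and 47.7 and 69.3 TPM on HFD, in controls and knockouts.

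Between genotypes Adrb3 levels overlapped on both diets. The log2 fold change in knockouts was 0.04 ± 0.14 (SE) on LFD, with an adjusted p of 0.968, and 0.37 ± 0.28 on HFD, with an adjusted p of 0.999. Over both diets it was 0.20 ± 0.17, with an adjusted p of 0.808. The sign on LFD was not stable: it was -0.0185 with length offsets in edgeR.

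Adrb1 (ENSMUSG00000035283) is a gene of 1 exon at chr19:56796862-56799352, plus strand, with counts between 83 and 417. Its levels were 0.489, 1.20, 0.985, 0.750 and 1.48 TPM in control LFD and 1.59, 1.19, 1.30, 1.77 and 0.984 TPM in control HFD. They were 1.36, 1.62, 1.02, 0.404 and 1.33 TPM in knockout LFD and 1.32, 1.31, 1.65, 0.985 and 1.11 TPM in knockout HFD. The groups overlapped in every comparison. On HFD against LFD the log2 fold change was 0.34 ± 0.30 (SE) in controls, with an adjusted p of 0.578, and 0.16 ± 0.34 in knockouts, with an adjusted p of 0.865. Over both genotypes it was 0.25 ± 0.22 (adjusted p = 0.488), and it turned to -0.25 when library sizes were taken from the white adipocyte markers. In knockouts against controls it was 0.13 ± 0.38 on LFD (adjusted p = 0.964), -0.05 ± 0.25 on HFD (adjusted p = 0.999) and 0.03 ± 0.22 over both diets (adjusted p = 0.985).

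On HFD the fold changes of Adrb1 and Adrb3 had opposite signs under the usual scaling, and the difference between the genes was not tested. The genes most like Adrb1 were Bcas3 (r = 0.75), Psmf1, a proteasome inhibitor (0.75), and Haus1, a subunit of the augmin complex of the spindle (0.74). Within the 10 HFD libraries r was 0.49, 0.24 and 0.21.

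Adra1a (ENSMUSG00000045875) spans chr14:67254088-67390005, plus strand, with 6 annotated transcripts and counts between 565 and 2153. Its levels were 5.12, 7.06, 5.18, 7.12 and 7.80 TPM in control LFD and 5.50, 5.35, 8.02, 4.99 and 2.65 TPM in control HFD. They were 6.89, 3.24, 7.52, 2.98 and 4.73 TPM in knockout LFD and 5.28, 3.45, 4.36, 3.63 and 6.99 TPM in knockout HFD. The highest single level was in a control on HFD, and no group stood clear of another. On HFD against LFD the log2 fold change was -0.48 ± 0.22 (SE) in controls, with an adjusted p of 0.251, -0.16 ± 0.28 in knockouts, with an adjusted p of 0.825, and -0.32 ± 0.19 over both, with an adjusted p of 0.273. With library sizes from the white adipocyte markers these became -0.91, -0.76 and -0.83, with adjusted p of 0.0230, 0.0892 and 0.00272, beside 40.8%, 30.5% and 62.7% of all genes called.

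Knockouts against controls gave Adra1a a log2 fold change of -0.44 ± 0.26 (SE) on LFD, with an adjusted p of 0.929, and -0.13 ± 0.25 on HFD, with an adjusted p of 0.999. Over both diets it was -0.29 ± 0.19, with an adjusted p of 0.743. The largest of its 6 transcripts, ENSMUST00000159365, carried 57.8% of the gene's mean TPM. A retained-intron transcript, ENSMUST00000160647, which does not encode the receptor, carried 11.8%. It is counted in the gene sums, and its mean was lower on HFD in controls (0.389 against 0.917 TPM) and knockouts (0.219 against 1.01 TPM). ENSMUST00000159365 was not lower on HFD, with means of 3.51 against 3.38 TPM in controls and 3.17 against 2.43 TPM in knockouts. The diet folds of Adra1a therefore do not describe the coding transcripts alone, which were not tested apart. The genes most like Adra1a were Adcy5, an adenylyl cyclase (r = 0.79), Stat5a, a transcription factor of cytokine signalling (0.76), and Gpam, a mitochondrial glycerol-3-phosphate acyltransferase (0.76), with r of at least 0.69 within each diet.

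Adra2a (ENSMUSG00000033717), a gene of 1 exon at chr19:54119672-54123472, plus strand, fell below the filter and was compared mainly on the TPM scale. Its levels were 0.400, 0.276, 0.0747, 0.186 and 0.221 TPM in control LFD and 0.290, 0.213, 0.197, 0.223 and 0.233 TPM in control HFD. They were 0.207, 0.594, 0.225, 0.267 and 0.180 TPM in knockout LFD and 0.230, 0.00515, 0.109, 0.0847 and 0.275 TPM in knockout HFD. Knockout HFD replicate 18 held 2 counts, under the 3 counts that a count of 0 allows, whereas the other libraries held between 35 and 224. The difference in mean log2(TPM + 1) between HFD and LFD was 0.0043 in controls, with a two-sided exact permutation p of 0.929, and -0.18 in knockouts, with an exact permutation p of 0.111. Between genotypes it was 0.07 on LFD (exact permutation p = 0.571) and -0.11 on HFD (exact permutation p = 0.127). A pseudocount of 1 compresses differences at these levels. With log2(TPM + 0.1) the diet differences were 0.073 in controls and -0.77 in knockouts, and the genotype differences 0.25 on LFD and -0.59 on HFD. In edgeR without the filter the corresponding log2 fold changes were -0.088, -1.03, 0.26 and -0.69, with adjusted p of 0.940, 0.517, 0.919 and 0.902.

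Adra1b (ENSMUSG00000050541; chr11:43588108-43714712, minus strand) was lower still, from 0 to 0.304 TPM, with 0 counts in 2 libraries and at most 3 counts in 4. Its 4 exact permutation p-values ranged from 0.190 for HFD against LFD in controls to 0.833 for the same contrast in knockouts. No difference in Adra1b or Adra2a was detectable at this depth with all mice, and counting error alone is wide at these levels. Single mice decided some of these values: without control HFD replicate 14 the exact permutation p for Adra1b in controls was 0.00794, and without knockout HFD replicate 21 that for Adra2a between genotypes on HFD was 0.0317, both before adjustment.

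The balance of a lipolytic against an antilipolytic receptor was described as the log2 ratio of Adrb3 to Adra2a TPM within a library. Its median was 7.20 in control LFD, 7.12 in knockout LFD, 6.49 in control HFD and 7.09 in knockout HFD. The ranges were 5.84 to 8.31, 6.11 to 7.36, 5.47 to 6.69 and 6.69 to at least 10.8, the last bound being the library with 2 Adra2a counts taken at 3. Adrb3 was far above Adra2a in every library, and the ranges overlapped, those of control and knockout HFD only at 6.69.

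Among the other receptors, Adra1d was at 0.10 ± 0.54 over both genotypes, with an adjusted p of 0.933, and at -0.45 under the white adipocyte scaling.

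The remaining steps of the pathway were described by the diet effect over both genotypes, beside a median of -0.03 and 25.2% called over all 15574 genes. Genes said to rise or fall were those called higher or lower. Noradrenaline handling had 5 of 10 genes above the filter, of which 2 rose and 0 fell: Slc22a3, an extraneuronal monoamine transporter, at 0.76 (adjusted p = 7.95e-04), and Maoa, a monoamine oxidase, at 0.62 (adjusted p = 2.91e-04). The median of the 5 was -0.06. Both genes were also called in each genotype, with adjusted p between 0.0264 and 0.0911. In knockouts the call of Slc22a3 was lost when any mouse but knockout HFD replicate 20 was left out. In controls the call of Maoa was lost without control LFD replicates 2, 3 or 5 or control HFD replicate 12. Th, the rate-limiting enzyme of catecholamine synthesis, was nearly absent, with a mean of 0.00795 TPM, and Dbh, which makes noradrenaline, with 0.000796 TPM.

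Of 6 G protein alpha subunits, 1 rose and 0 fell (median 0.11): Gnai2, which couples receptors to inhibition of adenylyl cyclase, at 0.74 with an adjusted p of 0.00184. Gnas, the stimulatory subunit, was at 0.16 with an adjusted p of 0.158. Of 7 adenylyl cyclases tested, 0 rose and 1 fell (median -0.10): Adcy10, the soluble cyclase that G proteins do not drive, at -2.68 with an adjusted p of 0.00108 and a mean of only 0.627 TPM. Of 6 protein kinase A subunits none was called in either direction by edgeR (median 0.01), and the most abundant, Prkar2b, was at 0.26 with an adjusted p of 0.147. Of 9 cAMP phosphodiesterases, which break down cAMP, 3 rose and 0 fell (median -0.07): Pde7a at 0.60, Pde4b at 0.41 and Pde8a at 0.35, the last 2 of which turned to -0.06 and -0.16 under the white adipocyte scaling. That scaling also ended the calls of Slc22a3 (0.25, adjusted p = 0.116), Maoa (0.10, adjusted p = 0.455), Gnai2 (0.27, adjusted p = 0.182) and Pde7a (0.12, adjusted p = 0.451).

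Of 7 desensitisation genes, 1 fell and 0 rose (median -0.06): Rgs2, a regulator of G protein signalling, at -0.60 with an adjusted p of 0.0872. Of 8 genes of the phospholipase C and protein kinase C arm, 2 fell and 0 rose (median 0.04): Prkce at -0.57 and Prkcb at -0.46, both protein kinase C isoforms. Of 9 cAMP-induced genes tested, 2 rose and 3 fell (median -0.39). The highest of those called was Crem, a cAMP-responsive transcription factor, at 0.58 with an adjusted p of 0.0304, and the lowest of them was Ppargc1a, a coactivator of mitochondrial biogenesis, at -0.60 with an adjusted p of 0.0246. Ucp1 was lower still, at -1.12, and was not called (adjusted p = 0.322). Of 6 lipolysis genes, 2 rose and 0 fell (median 0.25): Mgll, monoglyceride lipase, at 0.59 (adjusted p = 0.0228), and G0s2, an inhibitor of the triglyceride lipase Pnpla2, at 0.71 (adjusted p = 0.0694). Pnpla2 itself was at -0.28 (adjusted p = 0.287) and Lipe, hormone-sensitive lipase, at 0.01 (adjusted p = 0.984). Several of these calls were near the threshold and did not hold when mice were left out. With each of the 20 mice left out in turn, the call was lost in 13 cases for Rgs2, 11 for Prkcb and 6 for G0s2. Of 8 alternative settings, 5 lost the call of Prkcb, 4 that of Rgs2, 3 that of Prkce and 2 that of Ppargc1a. The white adipocyte scaling ended the calls of Crem (0.11, adjusted p = 0.600), Mgll (0.058, adjusted p = 0.764) and G0s2 (0.18, adjusted p = 0.552). No gene of these lists was called for genotype over both diets, where only 0.0385% of all 15574 genes were called.

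**Figure D5:**
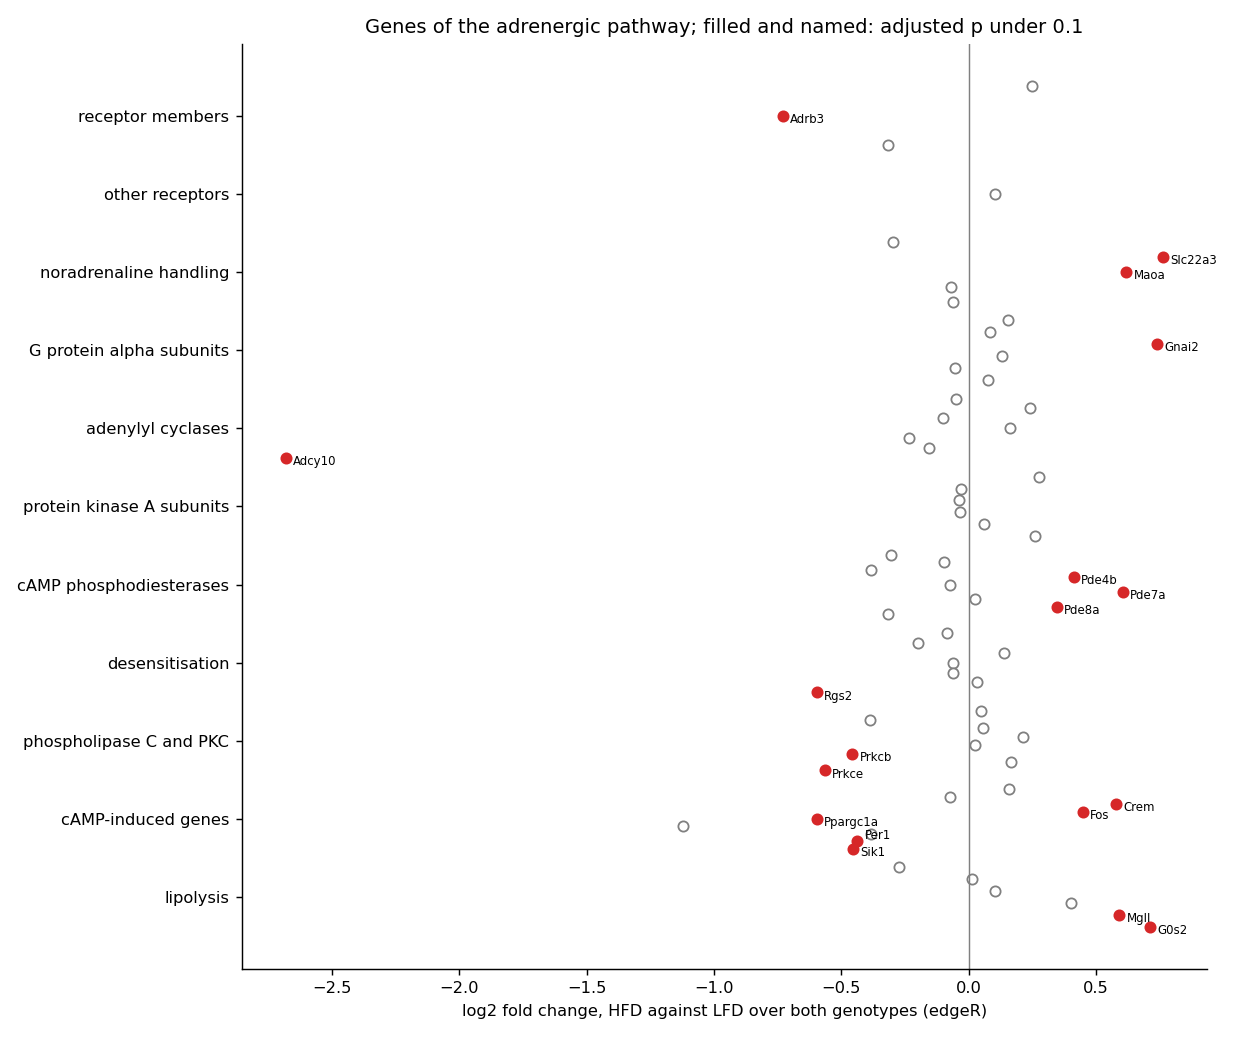
Log2 fold change on HFD against LFD over both genotypes (horizontal axis, edgeR) of the receptor genes and the other genes of the adrenergic pathway by group (rows), with 1 point per gene tested. Filled, named points had an adjusted p under 0.1, and Adrb3, at -0.73, is the lowest of the receptors.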

How the data were processed

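Total RNA from iWAT of 20 mice was sequenced after ribosomal depletion with a stranded kit. The authors quantified transcripts with Salmon 0.13.1 on Ensembl transcripts of the mm9 build (STAR 2.5.3 is also named in the submitters' processing notes), and the deposited table holds TPM and estimated counts per transcript. Labels give no batch, and mouse numbers are not shared between groups.

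Of 96533 transcripts, 94334 (97.72%) matched GENCODE on the same build and were summed to 36611 genes. Estimated counts were rounded and tested with edgeR 4.0.16 (quasi-likelihood, TMM, mean of at least 0.5 TPM, Benjamini-Hochberg over all genes tested, call under 0.1), with 2 groups per fit for pairwise comparisons and all 20 libraries with group means for the others. Single receptors were also tested by two-sided exact permutation of log2(TPM + 1). DESeq2 1.42.0 and limma 3.58.1 served as alternatives, with other scalings, no filter and each mouse left out. Scripts were tested on simulated data.

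The members and gene lists were chosen with earlier results of these data known. Named were the adrenergic receptor genes, 1 of which is not reported here, the 3 genes most correlated with each of 3 receptors, Tmem120a, and up to 3 called genes per pathway list, otherwise the most abundant. Lipe, Pnpla2, Gnas, Th, Dbh, Lep, Cidea, Elovl3 and Ucp1 were named in addition after their values were seen. Depth ranged from 54605101 to 92387737 counts per library, and intervals from counting were not computed. Each library is 1 mouse.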

Additional observations from a re-analysis of the deposited data

Results flagged for a closer look

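Single mice that stood apart from the other 4 of their group were looked for in the TPM of 8 receptor genes and in 3 marker sums, by Dixon's test at its critical value for groups of 5. Chance flags about 1 in 20 groups, and 44 groups were examined. Among the receptors, Adra2a in knockout LFD replicate 7 was at 0.594 TPM with the next mouse at 0.267 TPM. Adra1d in control HFD replicate 14 was at 0.139 TPM with the next at 0.854 TPM. Adra2b in knockout HFD replicate 18 was at 0 TPM with the next at 0.0798 TPM. Brown and beige markers summed to 566 TPM in knockout HFD replicate 17, with the next at 156 TPM. Muscle fibre markers summed to 3833 TPM in control LFD replicate 5 (next 250 TPM) and to 59.7 TPM in control HFD replicate 12 (next 12.1 TPM). No receptor had a genotype effect that differed between diets at an adjusted p under 0.1.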

How the results depend on the processing

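No paired analysis was possible because mouse numbers are not shared between groups. The number of receptors called in control mice on HFD was 0 with limma at either pseudocount and 2 with library sizes from white adipocyte markers, where Adra1a was added beside 40.8% of all genes called, and it ran from 0 to 1 when each mouse was left out. In knockout mice it was 2 with that scaling (30.5% of all genes called), 1 with DESeq2 and 1 with DESeq2 and length offsets, and ran from 0 to 1 with mice left out. Over both genotypes it was 2 with that scaling (62.7%). The counts for genotype and for the difference between diets stayed at 0 in every alternative run. That scaling moved the median of all genes by -0.45, -0.54 and -0.49 in controls, knockouts and both, and limma on log2(TPM + 1) moved it by 0.17 in controls, with 1791 genes called higher and 348 lower beside 676 and 751.

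Signs turned as follows. With library sizes from white adipocyte markers, Adrb1 was at -0.11 (controls), -0.39 (knockouts) and -0.25 (both) for diet and at 0.082 for genotype on HFD, Adra1d at -0.45, Fos at -0.039 and Slc22a3 in knockouts at -0.0069, Pde4b at -0.13 in knockouts and -0.063 over both, and Pde8a at -0.11 and -0.16. Adrb3 for genotype on LFD was at -0.0185 with length offsets in edgeR and -0.0179 with them in DESeq2. With mice left out, the range was -0.016 to 0.15 for Adrb3 and -0.037 to 0.33 for Adrb1 (genotype, LFD), -0.16 to 0.066 for Adrb1 and -0.30 to 0.029 for Adra1a (genotype, HFD), -0.049 to 0.14 for Adrb1 (genotype, both diets), -0.034 to 0.28 for Adrb1 (diet, knockouts) and -0.15 to 0.24 for Adra1d (diet, both). On log2(TPM + 1) it was -0.0089 to 0.12 for Adra2a (genotype, LFD), -0.044 to 0.052 for Adra2a (diet, controls), -0.093 to 0.012 for Adra1b (genotype, HFD) and -0.032 to 0.062 for Adra1b (diet, knockouts). The alternatives for these low genes and for pathway genes were chosen after seeing the data. Calls over both genotypes were lost when 1 mouse was left out in 9 of 20 cases for Fos, 6 for G0s2, 11 for Prkcb and 13 for Rgs2. Depth limits Adra1b and Adra2a, and p-values measure only the spread between 5 mice a group.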

Other observations

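Single brown and beige markers varied widely within groups. Ucp1, the uncoupling protein of thermogenic fat, had group means of 68.0 TPM in control LFD, 29.3 TPM in knockout LFD, 8.75 TPM in control HFD and 52.7 TPM in knockout HFD. Its log2 fold change on HFD was -3.14 ± 1.10 (SE) in controls and 0.89 ± 0.88 in knockouts, with adjusted p of 0.126 and 0.648 in edgeR, so neither was called. In knockout HFD, replicate 17 stood apart in the brown and beige sum, which includes Ucp1, at 566 TPM with the next mouse at 156 TPM. The 6 lipolysis genes had log2 fold changes between -0.36 and -0.15 in knockouts against controls over both diets, with a median of -0.28 beside -0.01 for all genes, and none was called. The 10 white adipocyte markers ran from -0.39 to -0.15 in that comparison, with a median of -0.23, and none of them was called either. Only 0.0385% of all 15574 genes were called there, so the absence of calls says little about either list. The lists are not independent, since Lipe and Pnpla2 are among the genes that belong to both.

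The retained-intron transcript of Adra1a, ENSMUST00000160647, was noticed after its values were seen. Its means were 0.917 TPM in control LFD, 1.01 TPM in knockout LFD, 0.389 TPM in control HFD and 0.219 TPM in knockout HFD. No test was run on it.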
